A study of Mus musculus with 9 samples.

Results

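The genes described here control splicing, stability and translation of mRNA in the nervous system and were followed by name across 3 cultured mouse cell types. They were the ELAV family (Elavl1, Elavl2, Elavl3 and Elavl4), the NOVA pair (Nova1 and Nova2), Rbfox3, the polypyrimidine tract binding proteins Ptbp1 and Ptbp2, and Srrm4. These were 10 of 25085 genes to which the counts were summed, and 9 of the 10 were among the 14850 genes tested. Members were listed by name for their known roles, and all were annotated as protein coding.

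The series holds poly(A) mRNA libraries from purified primary cultures, with 3 biological replicate experiments per cell type. Sensory neurons of the dorsal root ganglia (DRG) were taken from E13.5 embryos and kept in culture for about 2 weeks. Oligodendrocyte precursor cells (OPC), dividing glia from which myelinating cells arise, were taken from cortex at postnatal days 6 to 9 and were cultured for 6 to 7 days. Astrocytes came from cortex at postnatal days 1 to 3 and grew to confluence over about 21 days. Pups of either sex were used for the glia. The labels name no strain, litter, genotype, treatment or sequencing batch. Donor age and time in culture differed between all 3 cell types, and DRG neurons also differed from the glia in tissue of origin, so none of these can be told apart from cell type.

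The ELAV (Hu) proteins bind U-rich and AU-rich stretches of pre-mRNA and mRNA. Elavl1 (HuR) is made in most tissues, whereas Elavl2, Elavl3 and Elavl4 (HuB, HuC and HuD) are known as neuronal. PTBP1 is known to repress many neuronal exons, among them an exon of Ptbp2 whose skipping leads to decay of the Ptbp2 mRNA, and its loss during neuronal differentiation is a textbook splicing switch. SRRM4 (nSR100) promotes the inclusion of neuronal microexons, NOVA proteins place neuronal exons through clusters of short CA-containing motifs, and Rbfox3 encodes NeuN, a splicing factor used as a marker of mature neurons.

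Assigned reads ran from 30710093 to 53594210 per library. Between 21.98 and 24.7% of all reads were set aside as ambiguous, because counting was done per RefSeq transcript and a read shared by isoforms of a gene went to none of them. Genes with 1 accession (Elavl1, Elavl3, Nova1, Nova2, Ptbp2 and Srrm4) do not lose reads to isoforms of their own. Ptbp1 with 3 accessions, Elavl2 and Elavl4 with 4 each and Rbfox3 with 6 were seen only through reads specific to 1 transcript. Sensory neuron genes summed to 6551 to 6719 CPM, the count scaled to library size, in DRG libraries and to 17.4 CPM at most in any glial library. OPC genes summed to 13.2 to 29.12 CPM in DRG neurons, 5101 to 6860 CPM in OPC and 340.9 to 1311 CPM in astrocytes. Of these OPC genes, Gpr17 had 786, 9.44 and 9.84 CPM in OPC replicates 1, 2 and 3. Astrocyte genes summed to 10.21 to 30.59 CPM in DRG neurons, 827.7 to 1149 CPM in OPC and 6431 to 8200 CPM in astrocytes. Genes of Schwann and satellite glia summed to 2913 to 7956 CPM in DRG libraries. Microglial genes summed to 2423 CPM in Astrocytes replicate 1, against 423.8 and 389.5 CPM in replicates 2 and 3, while fibroblast and mural genes summed to 426, 4965 and 6238 CPM in the same 3 libraries. Acta2 alone held 413, 4639 and 5997 CPM of these astrocyte sums. Fibroblast and mural genes summed to 473.8, 238.1 and 461.9 CPM in DRG libraries and to 2.069 CPM at most in OPC libraries. Microglial genes were also higher in OPC replicate 3 (164.7 CPM) than in OPC replicates 1 and 2 (14.69 and 45.81 CPM).

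A pair of exons is shown, that of Ptbp1 because it is among the stretches through which Ptbp1 was counted, and that of Ptbp2 as the known link between the paralogs, although its inclusion could not be read here. The Ptbp1 exon lies at chr10:79860117-79860194 on the plus strand of GRCm38, is 78 nt long and is exon 8 of the GENCODE vM21 model of NM_001077363. The Ptbp2 exon lies at chr3:119724612-119724645 on the minus strand, is 34 nt long and is exon 10 of the model of NM_019550. Capitals mark the exon, and lower case the 15 bases on each side that adjoin it in the spliced transcript.
Ptbp1 alternative exon: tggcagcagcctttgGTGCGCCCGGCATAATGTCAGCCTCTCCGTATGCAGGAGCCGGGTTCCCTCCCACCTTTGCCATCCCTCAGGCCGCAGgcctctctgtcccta
Ptbp2 alternative exon: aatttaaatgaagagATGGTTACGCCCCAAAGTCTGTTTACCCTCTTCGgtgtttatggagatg
The Ptbp1 exon is coding throughout. It is known in mammals to be included or skipped, and the form that includes it is known as the stronger splicing repressor. The Ptbp2 exon is not a multiple of 3 in length and is the exon known to be skipped in the presence of PTBP1.

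Windows before some of the transcription starts of Elavl2 and Elavl4 are shown because these genes were counted through stretches that differ between starts. Not shown, among others, is an Elavl4 start further in than the one called inner here, whose window held CAGATG. The innermost Elavl2 starts are also left out, and their windows held 3 matches of GGGCGG each. Each window is the 250 bases upstream of a RefSeq start on GRCm38.p6, minus strand, written 5′ to 3′. The motifs searched on both strands were CAGCTG and CAGATG (E-boxes of the kind bound by basic helix-loop-helix factors), GGGCGG (a GC box), TATAAA, and GGACAG (a piece of the REST element), and capitals mark each match on either strand. Of 32851 promoter windows of the same length, 13% held CAGCTG, 14.4% CAGATG, 32.7% GGGCGG, 12.4% TATAAA and 18.7% GGACAG.
Elavl4 inner start, chr4:110287528-110287777: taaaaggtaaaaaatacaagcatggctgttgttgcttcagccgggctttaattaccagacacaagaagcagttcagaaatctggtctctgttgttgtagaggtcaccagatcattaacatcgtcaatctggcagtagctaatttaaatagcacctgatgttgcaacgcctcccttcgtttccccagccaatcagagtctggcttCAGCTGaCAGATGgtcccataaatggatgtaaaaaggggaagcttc
Elavl4 outer start, chr4:110351912-110352161: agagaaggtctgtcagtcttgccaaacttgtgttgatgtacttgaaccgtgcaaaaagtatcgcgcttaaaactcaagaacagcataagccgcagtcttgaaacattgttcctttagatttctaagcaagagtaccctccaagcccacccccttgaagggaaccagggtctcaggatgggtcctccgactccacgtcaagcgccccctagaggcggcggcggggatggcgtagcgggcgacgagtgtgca
Elavl2 middle start, chr4:91376497-91376746: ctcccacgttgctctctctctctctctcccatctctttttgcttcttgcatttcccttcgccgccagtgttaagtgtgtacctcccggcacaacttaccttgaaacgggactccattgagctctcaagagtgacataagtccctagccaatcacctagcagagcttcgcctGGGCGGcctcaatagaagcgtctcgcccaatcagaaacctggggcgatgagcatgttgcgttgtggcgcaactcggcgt
Elavl2 outer start, chr4:91399985-91400234: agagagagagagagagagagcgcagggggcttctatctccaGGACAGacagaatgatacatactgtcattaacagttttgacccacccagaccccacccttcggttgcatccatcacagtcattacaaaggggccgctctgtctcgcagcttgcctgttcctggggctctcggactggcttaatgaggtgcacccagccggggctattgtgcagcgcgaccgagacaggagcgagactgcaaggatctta
The window before the inner Elavl4 start held CAGCTG and CAGATG with 1 base between them, had 44% G and C and 4 CpG dinucleotides. The window before the outer Elavl4 start held none of the 5 motifs, had 53.6% G and C and 14 CpG dinucleotides. Over all promoter windows the median was 52.4% G and C and 6 CpG dinucleotides. The middle Elavl2 window held GGGCGG alone and the outer one GGACAG alone. No motif match overlapped another in these windows.

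The neuronal ELAV genes were highest in DRG neurons, then OPC, then astrocytes. Elavl3 (chr9:22015005-22052146), which stabilises neuronal transcripts, had 339, 284 and 286 CPM in DRG neurons, 150, 117 and 99.8 CPM in OPC, and 3.86, 5.68 and 7.10 CPM in astrocytes. All levels are CPM scaled with TMM factors (trimmed mean of M-values), given in replicate order, and ± is the SD over n = 3 libraries. The 3 ranges did not overlap. Elavl3 stood 54.8-fold higher in DRG neurons than astrocytes (log2 fold change 5.78, SE 0.30) at an adjusted p of 1.64e-06 by edgeR's quasi-likelihood test with Benjamini-Hochberg adjustment over all genes tested. DRG neurons exceeded OPC 2.48-fold (log2 1.31, SE 0.25, adjusted p 0.00151 by edgeR), and OPC exceeded astrocytes 22.1-fold (log2 4.47, SE 0.28, adjusted p 9.59e-06 by edgeR). Coordinates of genes are those of RefSeq on GRCm38.p6, the assembly of mm10. Each SE was calculated back from the fold change and the F statistic. In bulk cultures fewer cells of a type and less RNA per cell cannot be told apart. Of the Elavl3 exons, 256 of 5014 nt are shared with a gene model on the same strand, Gm49318.

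The OPC level of Elavl3 was 40.4% of the DRG level. Over the same libraries the 10 pan-neuronal markers summed to 28600 ± 4380 CPM in DRG neurons, 815 ± 109 CPM in OPC and 523 ± 66.9 CPM in astrocytes, so the OPC sum was 2.85% of the DRG sum. By gene the OPC level was 1.49% of the DRG level for Tubb3, a neuronal tubulin, 1.38% for Snap25, a synaptic fusion protein, 0.048% for Stmn2, 0.213% for Nefl, 3.47% for Syp, 6.04% for Uchl1 and 24.7% for Gap43, a growth cone protein. Snap25 and the other 3 markers, Syt1, Map2 and Dcx, have several accessions and were read through transcript-specific reads alone. Of these, Syt1 stood in OPC at 11.8% of a DRG level of 0.326 CPM. Map2 was higher in OPC, with 0.463 ± 0.228 CPM in DRG neurons and 33.9 ± 9.25 CPM in OPC, and so was Dcx, with 0.0790 ± 0.137 CPM in DRG neurons and 0.941 ± 0.233 CPM in OPC. The 10 central neuron markers summed to 205.7 to 296.8 CPM in DRG neurons, 33.52 to 67.31 CPM in OPC and 7.933 to 23.04 CPM in astrocytes. Of these, 8 (Neurod6, Neurod2, Tbr1, Slc17a7, Slc32a1, Gad2, Dlx5 and Bcl11b) did not exceed 0.469 CPM in any glial library.

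Elavl2 (chr4:91211533-91400108) had 78.5, 59.4 and 60.3 CPM in DRG neurons, 2.53, 2.67 and 1.28 CPM in OPC, and 0.0940, 0.309 and 0.553 CPM in astrocytes. Every DRG library was more than 20 CPM above every glial one, and OPC and astrocytes did not overlap. The astrocyte values rest on 38 reads in all, against 297 reads in OPC and 7476 in DRG neurons. DRG neurons exceeded OPC 30.6-fold in Elavl2 (log2 4.93, SE 0.54, adjusted p 6.79e-05 by edgeR). Against astrocytes the log2 fold change was 7.73 (SE 0.63, adjusted p 1.28e-05 by edgeR), and the ratio of summed counts per library size was 223.4 with a 95% counting interval from 162.6 to 315.9. OPC exceeded astrocytes by 2.80 (log2, SE 0.53, adjusted p 0.00226 by edgeR). Without Astrocytes replicate 3 these values against astrocytes were 8.37 for DRG neurons and 3.44 for OPC.

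Elavl4 (chr4:110203737-110351939), whose product is known to stabilise Gap43 mRNA, had 21.5, 19.6 and 14.8 CPM in DRG neurons and 0.604, 1.20 and 0.746 CPM in OPC. Astrocytes had a single read in replicate 1 and 0 in replicates 2 and 3. DRG neurons stood 21.8-fold above OPC (log2 4.45, SE 0.45, adjusted p 4.57e-05 by edgeR). Against the 1 astrocyte read, the count ratio was 2433 for DRG neurons (95% counting interval 436.2 to 96150) and 113.6 for OPC (19.99 to 4524), intervals that cover counting error only. Both differences passed edgeR's test, with adjusted p of 3.47e-06 for DRG neurons and 0.000103 for OPC. The fitted log2 fold changes of 10.81 and 6.36 moved to 12.58 and 8.14 without Astrocytes replicate 1, which held the read.

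Elavl1 (chr8:4284781-4325140), the ubiquitous member, ran the other way. It had 49.1, 48.0 and 49.4 CPM in DRG neurons, 227, 178 and 174 CPM in OPC, and 104, 91.8 and 110 CPM in astrocytes. The DRG libraries lay within 2 CPM of each other and below all glial libraries, and all OPC libraries were above all astrocyte libraries. Elavl1 fell by 1.06 on the log2 scale in DRG neurons against astrocytes (SE 0.16, adjusted p 0.000456 by edgeR) and by 1.98 against OPC (SE 0.17, adjusted p 1.68e-05 by edgeR). OPC exceeded astrocytes 1.89-fold (adjusted p 0.00145 by edgeR). Ccl25 overlaps 204 of its 5743 nt on the opposite strand.

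**Figure D1:**
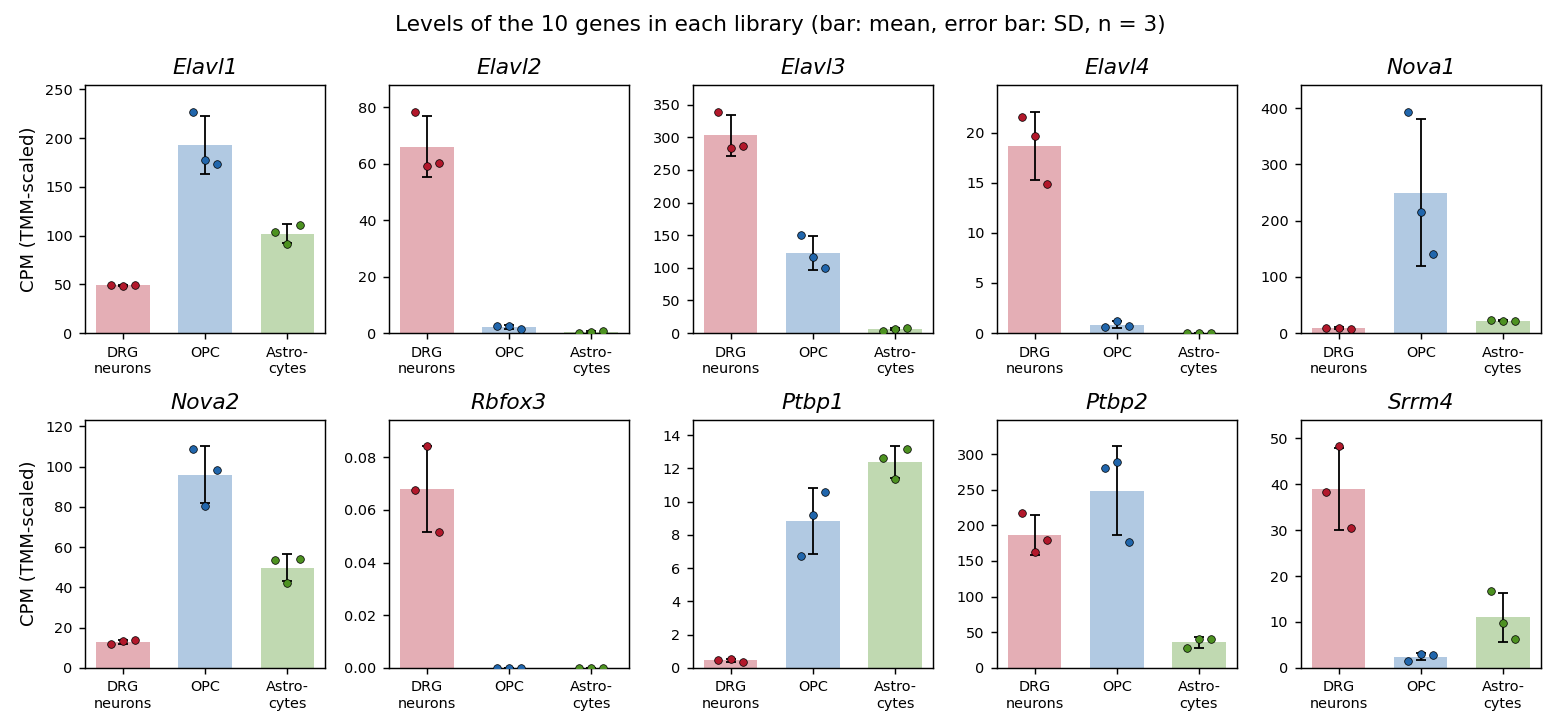
Level of each of the 10 genes in the 9 libraries, in CPM on a linear axis that starts at 0 and differs between panels. Points are libraries, bars are means and error bars SD over 3 libraries of DRG neurons, OPC and astrocytes, from left to right. Elavl2, Elavl3, Elavl4 and Srrm4 were highest in DRG neurons, Elavl1, Nova1 and Nova2 in OPC, and Ptbp2 was high in both DRG neurons and OPC.

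The transcripts through which Elavl4 was counted differed between DRG neurons and OPC. In the GENCODE models NM_001038698 starts at the inner site and has 295 nt of its own in its starting exon, while NM_001163397 starts at the outer site with 113 nt of its own. The other accessions, NM_001163399 and NM_010488, have no stretch of their own and held 0 reads. NM_001038698 took 613 of 636, 919 of 932 and 565 of 575 Elavl4 reads in DRG neurons, a share of 97.75 ± 1.2%, and 18 of 27, 24 of 59 and 19 of 31 reads in OPC, a share of 56.21 ± 13.7%. The exact (Clopper-Pearson) 95% intervals ran from 94.6 to 99.3% over the DRG libraries and from 28.1 to 83.5% over the OPC libraries, so the libraries of the pair of cell types did not overlap. The difference was 41.54 percentage points, with an exact two-sided permutation p of 0.1, the smallest that 3 against 3 libraries allow.

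NM_001163397 had 23, 13 and 10 reads in DRG neurons against 9, 35 and 12 in OPC. Its log2 fold change between DRG neurons and OPC was 0.09 (SE 0.68, adjusted p 0.920 by edgeR on all accessions), while that of NM_001038698 was 5.33 (SE 0.42, adjusted p 1.23e-05 by edgeR). The difference between these fold changes was tested only as the shares above. Of the accessions tested, 59.1% passed between DRG neurons and OPC.

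Elavl2 reads were also divided over starts. NM_001177883, with 561 nt of its own at the middle start, took 77.12 ± 5.03% of Elavl2 reads in DRG neurons and 95.32 ± 2.61% in OPC, and all 38 reads in astrocytes. NM_207685, with 268 nt of its own at the outer start, took 219, 289 and 295 reads in DRG neurons, a share of 10.77 ± 1.67%, and 0, 1 and 1 reads in OPC, a share of 0.883 ± 0.949%. NM_010486, with 20 nt of its own, took 12.1 ± 3.77% in DRG neurons and 3.80 ± 2.68% in OPC. Libraries of DRG neurons and OPC did not overlap for any of the 3 shares, and each exact two-sided permutation p was 0.1 (0.1 after Benjamini-Hochberg adjustment over the 5 shares of Elavl2 and Elavl4). The shares describe reads on transcript-specific stretches of unequal length and are not shares of molecules.

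**Figure D2:**
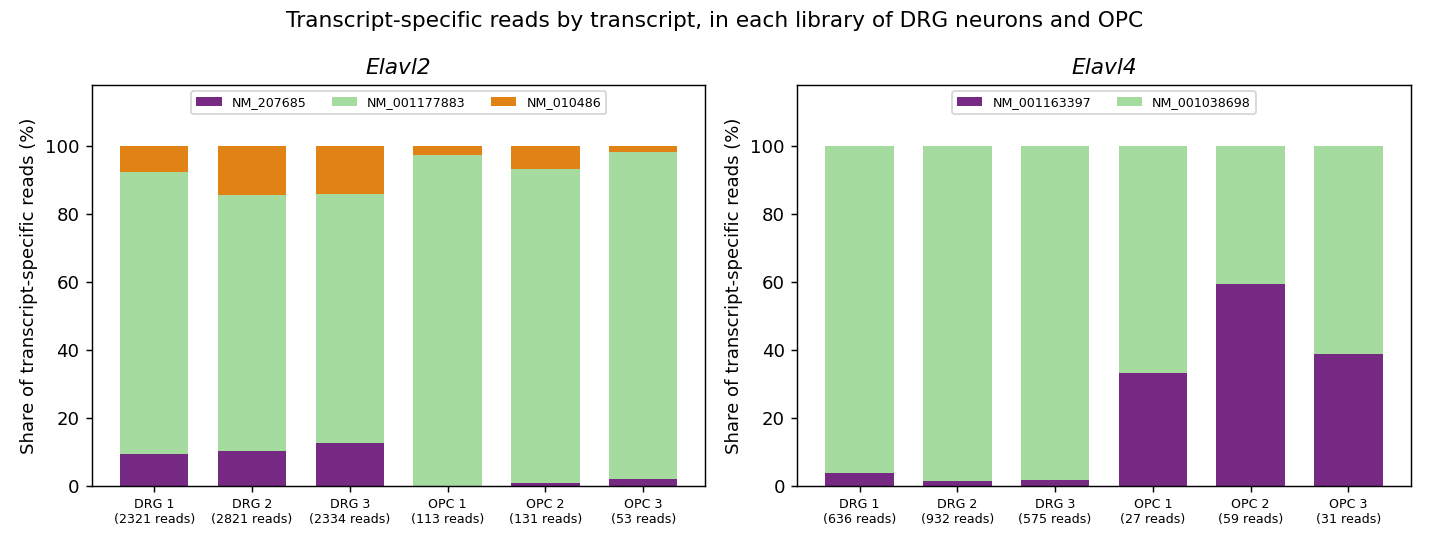
Share of the transcript-specific reads of Elavl2 (left) and Elavl4 (right) that fell to each RefSeq transcript, in percent, for each library of DRG neurons and then OPC, with the reads behind each bar in brackets. The Elavl4 transcript of the outer start (NM_001163397) took 1.40 to 3.62% in DRG libraries and 33.3 to 59.3% in OPC libraries.

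The NOVA genes were highest in OPC and lowest in DRG neurons. Nova1 (chr12:46697895-46819480) had 9.54, 9.77 and 7.77 CPM in DRG neurons, 394, 215 and 140 CPM in OPC, and 22.7, 20.9 and 22.3 CPM in astrocytes. The DRG and astrocyte libraries were tight, whereas the OPC libraries spread 2.82-fold with replicate 1 highest and replicate 3 lowest. No ranges overlapped. Nova1 in DRG neurons lay 27.7-fold below OPC (log2 −4.79, SE 0.38, adjusted p 1.30e-05 by edgeR) and 2.43-fold below astrocytes (log2 −1.28, SE 0.33, adjusted p 0.00808 by edgeR). OPC exceeded astrocytes 11.4-fold (log2 3.51, SE 0.36, adjusted p 8.37e-05 by edgeR).

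Nova2 (chr7:18925888-18965319), the paralog known from cortical neurons, had 11.9, 13.4 and 13.6 CPM in DRG neurons, 109, 80.6 and 98.5 CPM in OPC, and 53.5, 42.0 and 53.8 CPM in astrocytes. The order of the cell types was that of Nova1, again with no overlap of ranges. Nova2 in DRG neurons lay 7.40-fold below OPC (log2 −2.89, SE 0.19, adjusted p 6.73e-06 by edgeR) and 3.84-fold below astrocytes (log2 −1.94, SE 0.19, adjusted p 3.28e-05 by edgeR). OPC exceeded astrocytes 1.93-fold (adjusted p 0.00239 by edgeR). A non-coding gene on the opposite strand, Gm26821, overlaps 2652 of the 8372 nt of Nova2, and since the strand setting of the counting was not given its reads could not be separated.

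Rbfox3 (chr11:118489760-118911597) could not be assessed. It had 2, 4 and 2 reads in DRG neurons and 0 in every OPC and astrocyte library, where a count of 0 allows up to 3 reads a library. Of its 6 accessions, 5 have at most 214 nt of their own in the GENCODE models and the other 772 nt, and reads on shared stretches were set aside, so the low count is not a measure of the Rbfox3 level.

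Ptbp1 (chr10:79854432-79864435) was read through NM_001077363 alone, since its other accessions, NM_001283013 and NM_008956, held 0 reads in all libraries. In the GENCODE models the stretches specific to NM_001077363 are the 78-nt exon printed above and 202 nt at its 5′ end, where it overlaps E130317F20Rik on the opposite strand. NM_008956 has 339 nt of its own at its 3′ end in its GENCODE model and still held 0 reads, so the models may differ from those counted. The Ptbp1 values therefore concern the transcript with the 78-nt exon. Its own stretches lie to a larger part at its 5′ end than in that exon. Less Ptbp1 mRNA, less inclusion of that exon and less use of that 5′ start cannot be told apart. All 202 nt at the 5′ end overlap E130317F20Rik. Since the strand setting of the counting was not given, reads of that gene could not be separated.

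Ptbp1 had 13, 26 and 13 reads (0.440, 0.547 and 0.336 CPM) in DRG neurons, 300, 453 and 441 reads (6.71, 9.22 and 10.6 CPM) in OPC, and 672, 478 and 477 reads (12.6, 11.4 and 13.2 CPM) in astrocytes. All DRG libraries were under 1 CPM and all glial libraries above 6 CPM. DRG neurons lay 27.8-fold below astrocytes (log2 −4.80, SE 0.34, adjusted p 6.13e-06 by edgeR) and 19.9-fold below OPC (log2 −4.31, SE 0.34, adjusted p 1.25e-05 by edgeR). OPC libraries all lay below astrocyte libraries, but that difference did not pass the test (log2 −0.49, SE 0.28, adjusted p 0.182 by edgeR).

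Ptbp2 (chr3:119718741-119784647), the paralog that takes over during neuronal differentiation, had 217, 163 and 180 CPM in DRG neurons, 280, 289 and 176 CPM in OPC, and 27.1, 40.3 and 39.9 CPM in astrocytes. DRG neurons and OPC overlapped, OPC replicate 3 lying within the DRG range, and astrocytes lay far below both. DRG neurons exceeded astrocytes 5.22-fold in Ptbp2 (log2 2.38, SE 0.26, adjusted p 5.94e-05 by edgeR) and OPC exceeded them 6.95-fold (log2 2.80, SE 0.26, adjusted p 5.70e-05 by edgeR). Between DRG neurons and OPC the log2 fold change of −0.41 (SE 0.24) did not pass, with an adjusted p of 0.169 by edgeR. Ptbp2 has 1 accession, so reads of forms with and without its 34-nt exon were counted together and its inclusion could not be read.

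Within a library the ratio of Ptbp2 to Ptbp1 reads needs no scaling between libraries. Its log2 was 8.95, 8.21 and 9.06 in DRG neurons, 5.38, 4.97 and 4.05 in OPC, and 1.10, 1.83 and 1.60 in astrocytes. The 3 cell types did not overlap, and OPC lay between the other cell types. The mean log2 ratio was higher by 7.24 in DRG neurons than in astrocytes, by 3.94 in DRG neurons than in OPC, and by 3.29 in OPC than in astrocytes. Each of the 3 exact two-sided permutation tests gave p = 0.1 (0.1 adjusted over the 3), the smallest these sample sizes allow. The ratio sets reads on the whole of Ptbp2 against reads on a part of Ptbp1, so it orders the libraries and does not give the ratio of the mRNAs.

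**Figure D3:**
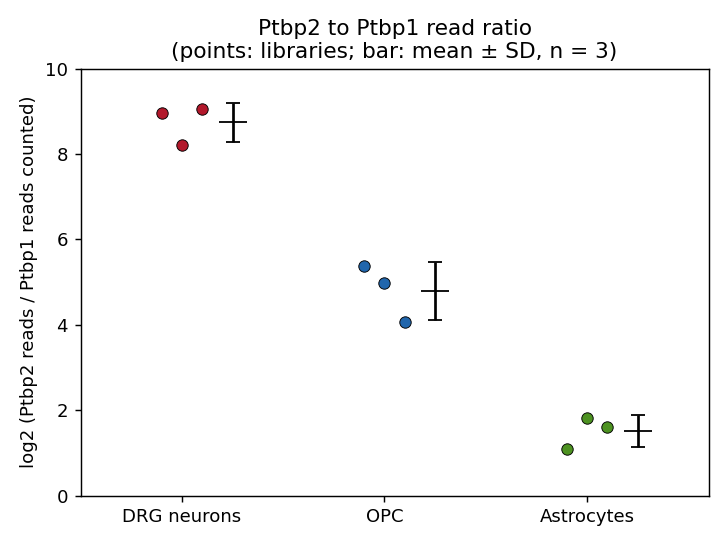
Log2 of Ptbp2 reads over Ptbp1 reads counted, for each library (points) of DRG neurons, OPC and astrocytes, with the mean and SD over 3 libraries beside them. The lowest DRG library was at 8.21, the OPC libraries ran from 4.05 to 5.38, and the highest astrocyte library was at 1.83.

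Srrm4 (chr5:116439268-116592562) had 38.3, 48.3 and 30.4 CPM in DRG neurons, 1.52, 2.95 and 2.89 CPM in OPC, and 16.8, 9.85 and 6.33 CPM in astrocytes. Among the tested members it alone had its lowest mean in OPC, with astrocytes between DRG neurons and OPC, and no ranges overlapped. Srrm4 in DRG neurons exceeded OPC 15.9-fold (log2 3.99, SE 0.45, adjusted p 8.12e-05 by edgeR) and astrocytes 3.54-fold (log2 1.82, SE 0.41, adjusted p 0.00395 by edgeR). OPC lay 4.49-fold below astrocytes (log2 −2.17, SE 0.42, adjusted p 0.00240 by edgeR). The highest astrocyte level was in replicate 1, the astrocyte library with the highest microglial and the lowest fibroblast and mural sum, and the part of those cells in the Srrm4 level was not tested. Without it the log2 fold changes were 2.26 for DRG neurons and −1.72 for OPC against astrocytes. An antisense gene, Srrm4os, overlaps 68 of its 7472 nt.

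Of the 9 members tested, 9 differed between DRG neurons and astrocytes, 5 higher (Elavl2, Elavl3, Elavl4, Ptbp2 and Srrm4) and 4 lower (Elavl1, Nova1, Nova2 and Ptbp1) in DRG neurons. Of all genes tested, 60.2% passed in that comparison, 27.4% higher and 32.7% lower. Between DRG neurons and OPC 8 members passed, 4 higher (Elavl2, Elavl3, Elavl4 and Srrm4) and 4 lower (Elavl1, Nova1, Nova2 and Ptbp1), where 59.5% of all genes passed, 28.4% higher and 31.1% lower. Between OPC and astrocytes 8 members passed, 7 higher in OPC and Srrm4 lower, where 51.8% of all genes passed, 26.3% higher and 25.5% lower. With more than 50% of all genes called in each comparison, these counts alone do not set the members apart. Median log2 fold changes of the 9 tested members were 1.82, −0.41 and 2.80 in the 3 comparisons, beside −0.13, −0.08 and 0.09 over all genes tested. The comparisons share libraries and are not independent of each other. Of the 12 member accessions tested singly, 12 passed between DRG neurons and astrocytes, 10 between DRG neurons and OPC and 10 between OPC and astrocytes, where 60%, 59.1% and 50.9% of all accessions passed. In fits to the 6 libraries compared alone, 11, 10 and 8 member accessions passed.

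**Figure D4:**
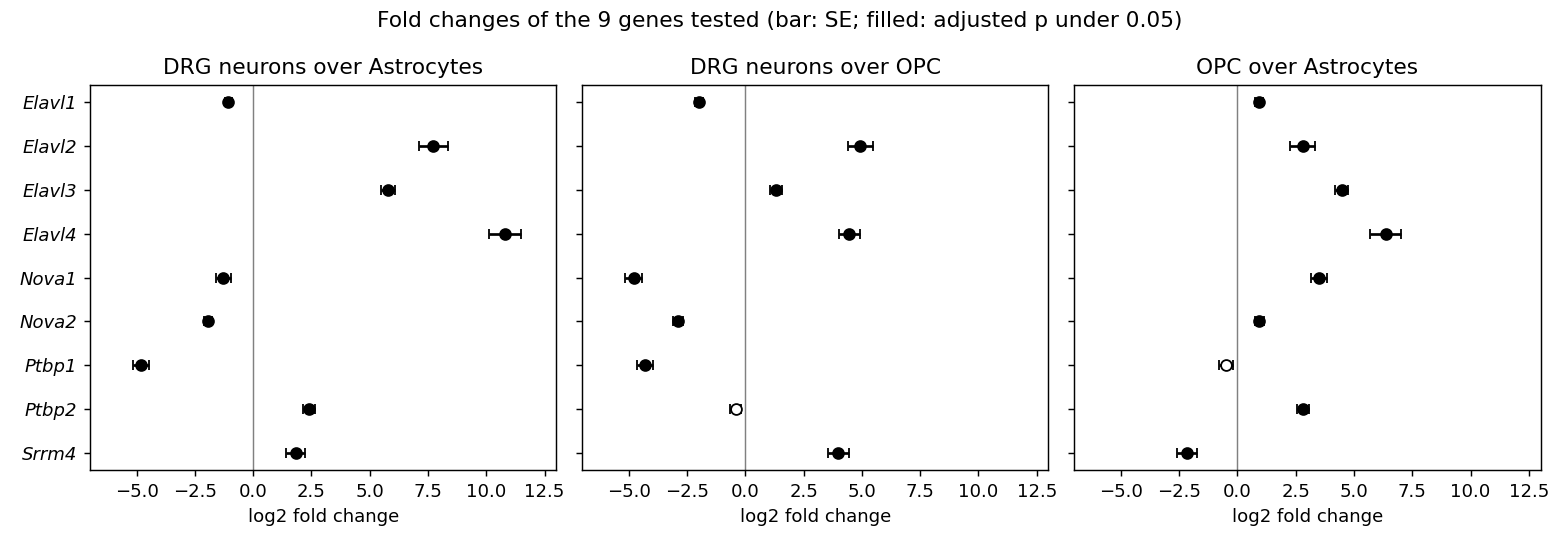
Log2 fold change of the 9 tested members between DRG neurons and astrocytes (left), DRG neurons and OPC (middle) and OPC and astrocytes (right). Points are the fitted values of edgeR, bars the SE, filled points passed at an adjusted p under 0.05, and the open points are Ptbp2 between DRG neurons and OPC and Ptbp1 between OPC and astrocytes.

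Levels of different members can be compared only per length and only for the 6 genes with 1 accession. In DRG neurons Elavl3 and Ptbp2 led with 60.5 ± 6.26 and 55.5 ± 8.35 CPM per kb of transcript, which did not differ beyond their spread. Elavl1 (8.50 ± 0.134), Srrm4 (5.22 ± 1.20), Nova2 (1.55 ± 0.109) and Nova1 (1.26 ± 0.153 CPM per kb) followed. In OPC Ptbp2 led with 73.8 ± 18.6 CPM per kb, followed by Nova1 (34.9 ± 18.3), Elavl1 (33.6 ± 5.20) and Elavl3 (24.4 ± 5.13 CPM per kb), 3 genes whose levels lay within each other's spread or close to it. Srrm4 was last in OPC at 0.328 ± 0.108 CPM per kb. In astrocytes Elavl1 (17.8 ± 1.64) and Ptbp2 (10.6 ± 2.23) led, and Srrm4 (1.47 ± 0.715) and Elavl3 (1.11 ± 0.325 CPM per kb) were last and within their spread of each other.

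REST, the repressor that keeps neuronal genes silent in other cells and is known to silence Srrm4, was measured with its cofactors. Rest itself had 2.40, 2.02 and 2.61 CPM in DRG neurons, 28.3, 25.0 and 18.6 CPM in OPC, and 33.9, 44.7 and 41.2 CPM in astrocytes. DRG neurons lay below all glial libraries, 17.0-fold below astrocytes (adjusted p 3.65e-06 by edgeR) and 10.2-fold below OPC (adjusted p 1.16e-05 by edgeR). Ctdsp1, a phosphatase recruited by REST, averaged 5.87 ± 1.66 CPM in DRG neurons, 107 ± 9.42 CPM in OPC and 180 ± 25.6 CPM in astrocytes. Rcor2, a CoREST subunit, was high in DRG neurons (45.2 ± 7.30 CPM) and OPC (56.0 ± 19.1 CPM) and low in astrocytes (1.57 ± 0.175 CPM). Hdac2, a histone deacetylase of the complex, averaged 186 ± 36.3 CPM in DRG neurons, 308 ± 41.1 CPM in OPC and 117 ± 28.6 CPM in astrocytes. Of the 10 genes of this list, 3 were higher and 6 lower in DRG neurons than in astrocytes, 1 higher and 7 lower in DRG neurons than in OPC, and 3 higher and 2 lower in OPC than in astrocytes. The median log2 fold changes were −1.35, −1.76 and 0.10, and the last was −0.01 with scaling by library size alone and 0 with DESeq2. Of all genes tested, 27.4, 28.4 and 26.3% passed as higher and 32.7, 31.1 and 25.5% as lower in the same comparisons.

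Of 26 other tissue-restricted splicing regulators listed, Qki was not found by name in the counts. Rbfox2, another paralog of Rbfox3, had 9 accessions and 0 reads in every library. It was not tested, nor were Esrp1 and Esrp2. The other 22 genes were tested. In DRG neurons 8 were higher and 12 lower than in astrocytes (median log2 fold change −0.78), and 5 were higher and 12 lower than in OPC (median −1.08). For all genes tested the shares were 27.4% higher and 32.7% lower than in astrocytes, and 28.4 and 31.1% against OPC. Rbfox1, a paralog of Rbfox3, averaged 28.1 ± 0.955 CPM in DRG neurons, 0.980 ± 0.172 CPM in OPC and 0.0418 ± 0.0357 CPM in astrocytes, through 2 accessions. Srrm3, a paralog of Srrm4 that also acts on microexons, averaged 47.4 ± 10.2 CPM in DRG neurons, 4.48 ± 0.610 CPM in OPC and 0.165 ± 0.180 CPM in astrocytes. Srrm3 was higher in OPC than in astrocytes (adjusted p 0.000972 by edgeR), whereas Srrm4 was lower. Rbm24 and Rbm20, splicing factors known from muscle, were lowest in DRG neurons, at 0.0339 ± 0.00815 CPM for Rbm24 against 3.92 ± 1.11 CPM in OPC and 12.6 ± 3.06 CPM in astrocytes, and at 0.652 ± 0.111 CPM for Rbm20 against 24.0 ± 1.78 CPM in OPC and 19.1 ± 2.99 CPM in astrocytes. Celf4, known from neurons, had 1.14 ± 0.0836 CPM in DRG neurons and 0.0223 ± 0.00186 CPM in OPC, through 5 accessions. By edgeR the adjusted p against astrocytes was 1.73e-06 for Rbfox1 and 5.59e-05 for Srrm3. For Rbm24 and Rbm20 in DRG neurons it was 7.76e-06 at most against either glial type.

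Between OPC and astrocytes 11 of these 22 regulators were higher and 5 lower in OPC (median log2 fold change 0.93). Of all genes tested, 26.3% were higher and 25.5% lower in OPC. Khdrbs2 (SLM1), a KH-domain splicing factor, averaged 6.50 ± 4.31 CPM in OPC and 0.0890 ± 0.0447 CPM in astrocytes (adjusted p 0.000167 by edgeR). Celf3 averaged 1.49 ± 0.646 CPM in OPC and 0.0363 ± 0.0356 CPM in astrocytes, through 5 accessions. Raver2, a cofactor that binds PTB proteins, averaged 15.1 ± 2.23 CPM in OPC and 68.9 ± 19.5 CPM in astrocytes (adjusted p 0.000164 by edgeR), and in DRG neurons it averaged 6.54 ± 0.546 CPM. Mbnl3 averaged 0.215 ± 0.0314 CPM in OPC and 1.51 ± 0.967 CPM in astrocytes.

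General splicing factors (SR and hnRNP proteins) were more often called lower than higher in DRG neurons. Over all genes tested, 27.4% were higher and 32.7% lower in DRG neurons than in astrocytes. The shares were 28.4 and 31.1% against OPC, and 26.3% higher and 25.5% lower in OPC than in astrocytes. Of 13 SR proteins, which promote exon inclusion, 1 was higher and 8 lower in DRG neurons than in astrocytes, 2 higher and 9 lower in DRG neurons than in OPC, and 7 higher and 0 lower in OPC than in astrocytes, with median log2 fold changes of −0.94, −1.57 and 0.73. Without Astrocytes replicate 1 and OPC replicate 3 the last count was 4 higher and 0 lower. Srsf12 was higher in DRG neurons than in both glial types, with 35.9 ± 19.5 CPM in DRG neurons, 6.17 ± 1.23 CPM in OPC and 1.84 ± 0.811 CPM in astrocytes. Srsf4 averaged 10.2 ± 0.361 CPM in DRG neurons, 54.6 ± 7.87 CPM in OPC and 30.8 ± 4.40 CPM in astrocytes, and Tra2b averaged 98.2 ± 12.7 CPM in DRG neurons, 387 ± 59.6 CPM in OPC and 147 ± 16.2 CPM in astrocytes. Srsf1, through 2 accessions, averaged 3.76 ± 0.682 CPM in DRG neurons, 14.7 ± 8.92 CPM in OPC and 11.04 ± 2.20 CPM in astrocytes. Srsf7, through 5 accessions, averaged 6.64 ± 0.611 CPM in DRG neurons, 32.8 ± 6.21 CPM in OPC and 19.0 ± 2.50 CPM in astrocytes.

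Of 24 hnRNP proteins tested, 2 were higher and 13 lower in DRG neurons than in astrocytes, 1 higher and 19 lower in DRG neurons than in OPC, and 18 higher and 0 lower in OPC than in astrocytes. The median log2 fold changes were −0.73, −1.76 and 0.98. The shares of all genes tested were 27.4, 28.4 and 26.3% higher and 32.7, 31.1 and 25.5% lower in these comparisons. Pcbp3, a poly(C)-binding protein, was the one higher in DRG neurons than in both glial types, with 714 ± 105 CPM in DRG neurons, 58.4 ± 7.46 CPM in OPC and 51.2 ± 22.2 CPM in astrocytes. Hnrnpl, a splicing repressor that binds CA-rich sequence, averaged 82.0 ± 11.3 CPM in DRG neurons, 579 ± 51.6 CPM in OPC and 272 ± 55.2 CPM in astrocytes. Hnrnpdl averaged 62.5 ± 1.46 CPM in DRG neurons, 523 ± 137 CPM in OPC and 172 ± 46.8 CPM in astrocytes. Pcbp4 averaged 321 ± 25.1 CPM in DRG neurons, 294 ± 41.5 CPM in OPC and 138 ± 34.8 CPM in astrocytes. Hnrnpf, through 7 accessions, averaged 1.45 ± 0.547 CPM in DRG neurons, 15.9 ± 5.91 CPM in OPC and 8.81 ± 3.75 CPM in astrocytes. Hnrnpab, through 2 accessions, averaged 13.9 ± 3.47 CPM in DRG neurons, 64.3 ± 17.4 CPM in OPC and 22.7 ± 7.04 CPM in astrocytes.

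Of 20 RNA-binding proteins of mRNA transport and translation tested, 5 were higher and 4 lower in DRG neurons than in astrocytes, 6 higher and 7 lower in DRG neurons than in OPC, and 7 higher and 2 lower in OPC than in astrocytes. The median log2 fold changes were 0.00, −0.67 and 0.57, and the one against astrocytes was −0.25 with scaling by library size alone. Among all genes tested, 27.4, 28.4 and 26.3% passed as higher and 32.7, 31.1 and 25.5% as lower. Igf2bp1, which carries mRNA into neurites, averaged 3.33 ± 1.19 CPM in DRG neurons, 0.0353 ± 0.0316 CPM in OPC and 2.34 ± 1.80 CPM in astrocytes. Cpeb4 averaged 3.79 ± 1.97 CPM in DRG neurons and 0.0346 ± 0.0421 CPM in OPC, had 0 reads in all astrocyte libraries, and was read through 3 accessions. Cpeb2, its relative in cytoplasmic polyadenylation, averaged 8.36 ± 2.67 CPM in DRG neurons, 2.43 ± 1.48 CPM in OPC and 1.62 ± 0.242 CPM in astrocytes. Igf2bp3 averaged 9.73 ± 6.40 CPM in DRG neurons, 28.5 ± 4.35 CPM in OPC and 10.045 ± 0.807 CPM in astrocytes. Tia1, a stress granule protein with 3 accessions, averaged 0.578 ± 0.219 CPM in DRG neurons, 8.45 ± 1.70 CPM in OPC and 3.15 ± 0.648 CPM in astrocytes. Ewsr1, with 4 accessions, averaged 14.8 ± 4.43 CPM in DRG neurons, 40.7 ± 22.1 CPM in OPC and 41.9 ± 8.60 CPM in astrocytes.

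**Figure D5:**
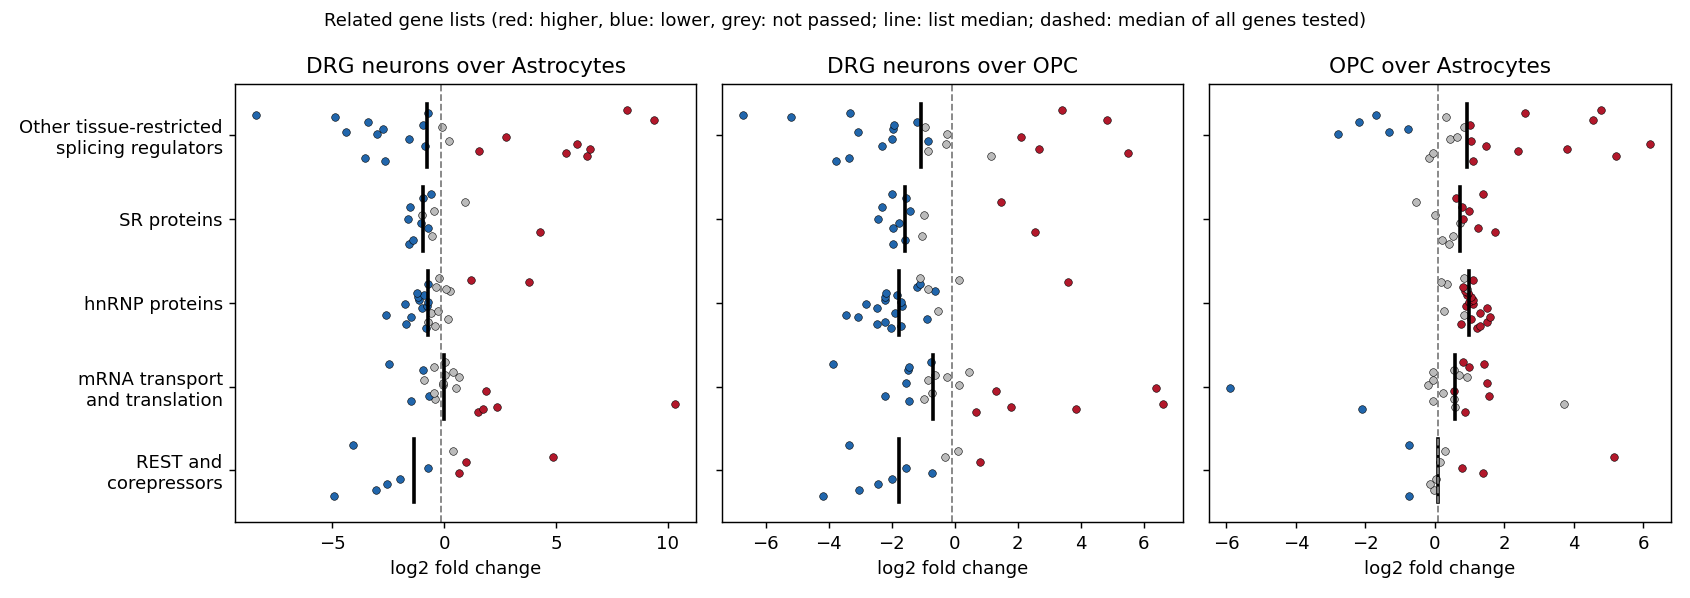
Log2 fold change of each tested gene in 5 related lists (rows) for DRG neurons over astrocytes, DRG neurons over OPC and OPC over astrocytes (panels). Red points passed as higher, blue as lower and grey did not pass; black lines are list medians and the dashed line the median of all genes. In the OPC over astrocytes panel no SR or hnRNP point is blue.

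Over the 9 libraries the genes whose log2 CPM followed a member most closely were Matn4 for Elavl1 (Pearson r 0.997), Ackr1 for Elavl2 (0.995), Pcdha7 for Elavl3 (0.996), Sprn for Elavl4 (0.999), Peli1 for Nova1 (0.995), Rbm4b for Nova2 (0.995), Sox21 for Ptbp1 (0.994), Pak7 for Ptbp2 (0.991) and A330074K22Rik for Srrm4 (0.988). Next came Gtf2h3, Vwa5b2, Pcdha5, Syndig1l, Khdrbs1, Smndc1, Nr2e1, Slitrk5 and Atp1b1 for the same members in turn. Between 133 genes (Ptbp2) and 441 genes (Nova2) had an r over 0.95, because the 9 points fall into 3 cell types and share libraries. Among the members, Elavl1 and Nova2 had an r of 0.98, Elavl2 and Elavl4 one of 0.97, and Elavl1 and Srrm4 one of −0.98, given as descriptions on the same 9 points.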

How the data were processed

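Messenger RNA of 9 mouse cultures (3 each of DRG neurons, OPC and astrocytes) was sequenced as stranded libraries, per the labels' protocols. Reads were aligned to mm10 with TopHat2 and counted with HTSeq, per the submitters' processing notes; the sources used here give neither their versions nor the counting mode or strand setting. Raw counts per RefSeq accession were deposited, with no normalization. Of 33787 accessions, 32417 were named from RefSeq GRCm38.p6, 187 from GENCODE vM21, and 1183 kept their own identifier. Counts were added per gene, which gave 25085 genes, 20313 with 1 accession. The HTSeq classes of unassigned reads were left out.

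The main test was edgeR 4.0.16 (R 4.3.3), a quasi-likelihood F-test on all 9 libraries in 1 model with cell type as the factor and 6 residual degrees of freedom. Genes were kept by filterByExpr (minimum count 10), libraries were scaled by TMM, and p was adjusted by Benjamini-Hochberg over 14850 genes with a threshold of 0.05. The script was tested on simulated data in which few genes differed, unlike the data here. That test does not show how scaling holds when many genes differ. P-values measure the spread between the replicate experiments named in the labels. Correlations used log2 CPM with a prior count of 2. Alternatives were DESeq2 1.42.0, scaling by library size alone, no filter on low counts, 1 accession per gene, the compared libraries alone, a replicate block and leaving out libraries. Counting intervals and floors (3 counts per library) cover counting error only, since reads carry no molecular identifiers.

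The members and gene lists were chosen with earlier results of these data known, so no p was adjusted over a list alone. In each list, up to 2 genes with the largest rise and up to 2 with the largest fall per comparison were named, at an adjusted p under 0.05, at least 2-fold and a mean of at least 1 CPM in the higher group. Rbfox2, Esrp1, Esrp2 and Gpr17 were named after their values were seen, and Qki after it was not found. Of the genes this rule gave, 1 is not reported here. Sequences are from RefSeq (promoters) and GENCODE vM21 (exons). Lengths and stretches specific to a transcript are from GENCODE models of the same accessions.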

Additional observations from a re-analysis of the deposited data

How the results depend on the processing

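All 432 alternative values of the 27 member changes kept their direction and their side of the threshold. Of 177 alternative counts and ratios, the counts stayed within 1.5 times their main value and the ratios kept their direction, but not every count was equal. Ptbp2 between DRG neurons and OPC had adjusted p from 0.0829 to 0.455 over its alternatives, and Ptbp1 between OPC and astrocytes from 0.0745 to 0.411. Without a filter on low counts, Rbfox3 passed against both glial types from 8 DRG reads, which made 10 members called between DRG neurons and astrocytes and 9 between DRG neurons and OPC. In fits to the compared libraries alone, 11 member accessions were called between DRG neurons and astrocytes and 8 between OPC and astrocytes, against 12 and 10 in fits to all libraries. With 1 accession per gene, Elavl4 had log2 fold changes of 5.34 between DRG neurons and OPC and 5.43 between OPC and astrocytes. The replicate block gave 8747 genes called between DRG neurons and astrocytes, 8695 between DRG neurons and OPC and 7421 between OPC and astrocytes, against 8938, 8834 and 7690 without it, and changed no call of a member. Deviations of same-numbered libraries correlated at −0.036 to 0.128 (1 of 9 pairs over 0.1) and those of other numbers at −0.13 to 0.078. No strong pairing by number was seen, but weak correlations cannot exclude pairing. Relative to TMM, scaling by library size alone shifted the median log2 fold change of all genes by −0.26, −0.15 and −0.11 in the 3 comparisons, and DESeq2 by 0.07, 0.16 and −0.10, and no member changed direction. Depth limits Elavl4 and Elavl2 in astrocytes (1 and 38 reads) and Ptbp1 in DRG neurons (52 reads), and shared reads limit Elavl2, Elavl4, Ptbp1 and Rbfox3. The gene changes of Elavl2 and Elavl4 rest on transcript-specific reads, so the level of the gene and the choice of start cannot be told apart.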
